A study of Mus musculus with 9 samples.

Results

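The Cyp3a family and the receptor PXR were followed as 9 genes of the liver expression table, namely Cyp3a11, Cyp3a13, Cyp3a16, Cyp3a25, Cyp3a41a, Cyp3a41b, Cyp3a44, Cyp3a59 and Nr1i2, the gene of PXR. Their entries were found by gene name, 9 of the 52151 entries of that table, and 26345 of those entries held a known transcript with a gene name. The members, and the gene lists read beside them, were chosen with earlier results of these data known. Liver RNA came from mice of 8 weeks in 3 groups of 3 libraries, fed for 5 weeks. The pair-fed group (PF) received an isocaloric control liquid diet, the alcohol-fed group (AF) the Lieber-DeCarli diet, and the third group (AF with MNA) the Lieber-DeCarli diet with intraperitoneal injection of MNA at 50 mg/kg. The methods describe male C57BL/6J mice for PF and AF and do not describe the MNA group. The labels give the strain as C57BL/6 for PF and AF and as C57BL/7, C57BL/8 and C57BL/9 for the libraries of AF with MNA, and they do not spell out MNA. No vehicle-injected AF group and no PF group with MNA were analysed here, so the injection and MNA cannot be told apart. The labels do not state that each library is a separate animal, so the p-values measure the spread between these libraries.

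Cytochrome P450 enzymes of the 3A group are haem proteins of the hepatocyte endoplasmic reticulum that oxidise drugs, steroids and bile acids, and their genes lie side by side as a cluster of near copies. PXR is a nuclear receptor that binds a wide range of foreign chemicals and bile acids, pairs with the retinoid X receptor RXRα, and switches on detoxification genes through paired copies of a short DNA half-site. Cyp3a11 is the mouse gene most used as a readout of PXR activity, and the related receptor CAR (Nr1i3) shares many of its targets. In mouse liver, Cyp3a41 and Cyp3a44 transcripts are known from females, and Cyp3a16 from the time around birth.

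On GRCm38, 7 of the 8 Cyp3a members lay with Cyp3a57 in a cluster of 768.0 kb at chr5:145345279-146113287. Cyp3a13 lay apart at chr5:137892932-137921619 on the minus strand, where the annotated gene Gm15502 overlaps it, and Nr1i2 lay at chr16:38248323-38294824 on the minus strand. Cyp3a57 and Cyp3a59 were on the plus strand and the other genes of the cluster on the minus strand. Every Cyp3a gene had 13 exons and a coding sequence of 1512 or 1515 bases, and Nr1i2 had 9 exons and a coding sequence of 1296 bases. No member's entry held another named gene.

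**Figure D1:**
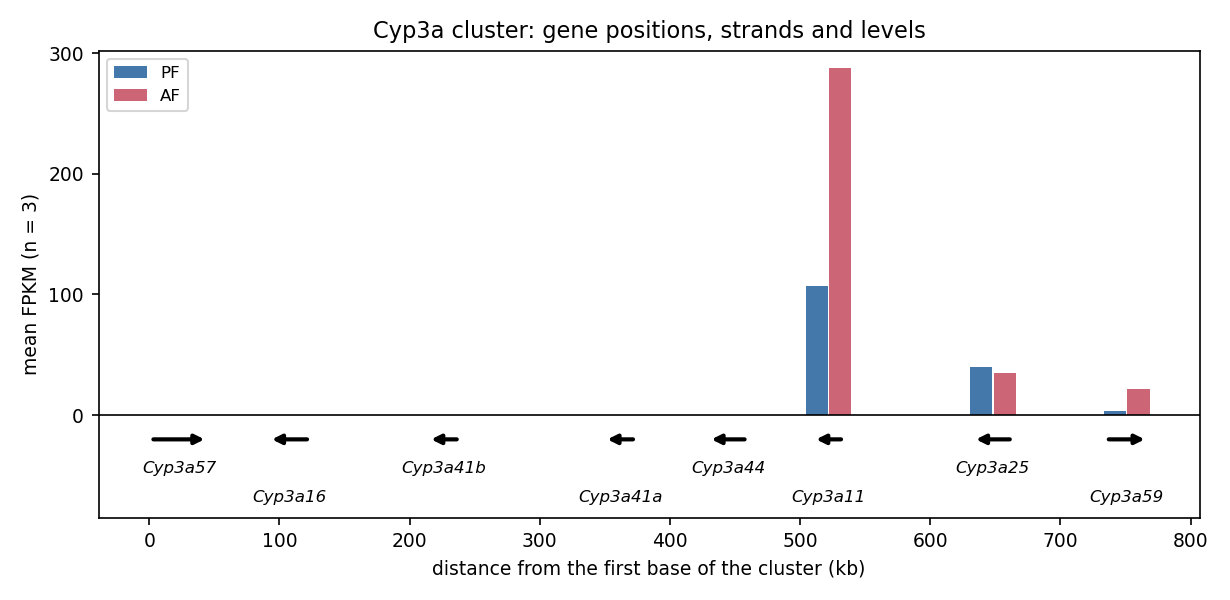
Mean FPKM (y axis, linear, n = 3 libraries) of each gene of the Cyp3a cluster in PF and AF, at its distance from the first base of the cluster (x axis, kb). Arrows give the gene's extent and direction; Cyp3a11 went from 107 to 287 FPKM, Cyp3a25 lay at 39.8 and 34.6, Cyp3a59 at 3.88 and 22.0, and the bars of the other genes are too low to be seen.

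The neighbours Cyp3a25 and Cyp3a59 were alike in 97.5% of their coding bases, with 38 differing, and in 94.8% of the aligned promoter. Their promoters are shown because the levels of this pair are set side by side further on. The sequences are RefSeq's for GRCm38.p6, 250 bases upstream of the annotated start, at chr5:146009619-146009868 on the minus strand for Cyp3a25 and at chr5:146079008-146079257 on the plus strand for Cyp3a59, each printed 5′ to 3′ with capitals at the bases that differ between the pair or have no partner in the alignment.
Cyp3a25: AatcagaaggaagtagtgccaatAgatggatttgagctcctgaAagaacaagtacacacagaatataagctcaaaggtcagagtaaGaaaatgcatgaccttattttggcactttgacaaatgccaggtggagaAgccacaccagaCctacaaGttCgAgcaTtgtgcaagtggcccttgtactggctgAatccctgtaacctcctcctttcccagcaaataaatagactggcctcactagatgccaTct
Cyp3a59: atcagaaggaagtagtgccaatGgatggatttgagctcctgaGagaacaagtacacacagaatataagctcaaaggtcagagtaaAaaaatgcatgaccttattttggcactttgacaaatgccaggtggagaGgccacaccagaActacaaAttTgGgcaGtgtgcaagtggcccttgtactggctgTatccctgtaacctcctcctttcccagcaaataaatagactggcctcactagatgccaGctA
Both hold the half-site AGGTCA, at -176 in Cyp3a25 and -177 in Cyp3a59 counted from the start, and the same half-site on the other strand at -155 and -156, and none of the 12 capitals of either sequence falls in them.

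Promoters of 3 other genes of the cluster are shown because Cyp3a11 was the most abundant member, while Cyp3a44 and Cyp3a41a, alike to it in 94.9% and 95.2% of coding bases, were near 0. The first 140 bases of each window, from -250 to -111, are printed from the minus strand of GRCm38.p6 at chr5:145879965-145880104 for Cyp3a11, chr5:145805985-145806124 for Cyp3a44 and chr5:145720247-145720386 for Cyp3a41a, with capitals at every AGGTCA or AGTTCA half-site on either strand.
Cyp3a11: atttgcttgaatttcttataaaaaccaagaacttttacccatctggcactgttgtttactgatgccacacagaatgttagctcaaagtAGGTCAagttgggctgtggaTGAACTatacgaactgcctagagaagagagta
Cyp3a44: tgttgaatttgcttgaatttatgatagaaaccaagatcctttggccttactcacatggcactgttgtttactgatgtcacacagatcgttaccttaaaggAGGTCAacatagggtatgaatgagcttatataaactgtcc
Cyp3a41a: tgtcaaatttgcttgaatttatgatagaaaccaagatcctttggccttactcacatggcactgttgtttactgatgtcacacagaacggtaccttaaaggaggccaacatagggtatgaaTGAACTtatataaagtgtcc
Cyp3a11 holds AGGTCA at -162 and AGTTCA on the other strand at -142, Cyp3a44 holds only the first and Cyp3a41a only the second. Cyp3a57, also near 0, holds AGGTCA at -174 and on the other strand at -153, while Cyp3a13, which was expressed, holds no half-site. The part of half-sites in the levels was not tested. GENCODE places the start of Cyp3a11 110 bases upstream of the RefSeq start, so positions in its promoter depend on the annotation. A half-site stood in the windows of 6 of 9 members (Cyp3a11, Cyp3a25, Cyp3a41a, Cyp3a41b, Cyp3a44 and Cyp3a59), against 27.7% of the 32851 promoter windows of RefSeq genes, and half-sites overlap no other motif searched except as part of it. Several of these promoters are near copies, so the 6 are not independent. Cyp3a41a was alike to Cyp3a41b in 99.6% and to Cyp3a44 in 94.4% of aligned promoter bases, and Cyp3a25 to Cyp3a59 in 94.8%. Paired half-sites, as direct repeats with a spacer of 3 or 4 bases or everted repeats with a spacer of 6 or 8, stood in 0 of 9 members' windows and in 0.0122%, 0.0274%, 0.00913% and 0.0122% of all windows, respectively. Only exact copies of AGGTCA or AGTTCA were searched, from 250 bases upstream to 50 bases downstream of the RefSeq start. Imperfect or more distant pairs could therefore not be counted, and the search does not show that the members lack PXR sites.

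Levels are in FPKM, which scales fragments to transcript length and to the size of the library, and can therefore be compared between genes. Cyp3a11 was the most abundant member in every library, and its position among the 26345 named entries ordered by FPKM was 182 to 313 in PF, 92 to 117 in AF and 70 to 91 in AF with MNA. It was followed in PF by Cyp3a25 at 39.8 ± 15.5 FPKM (mean ± SD, n = 3), Cyp3a13 at 8.51 ± 1.37, Nr1i2 at 6.81 ± 1.92 and Cyp3a59 at 3.88 ± 0.431. In PF the ranges of Cyp3a13 and Nr1i2 overlapped, and the other neighbours in that order did not. In AF, Cyp3a25 (34.6 ± 8.97) and Cyp3a59 (22.0 ± 7.09) overlapped, as did Cyp3a59 and Cyp3a13 (13.2 ± 4.30), and Cyp3a13 stayed above Nr1i2 (6.09 ± 0.595).

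**Figure D2:**
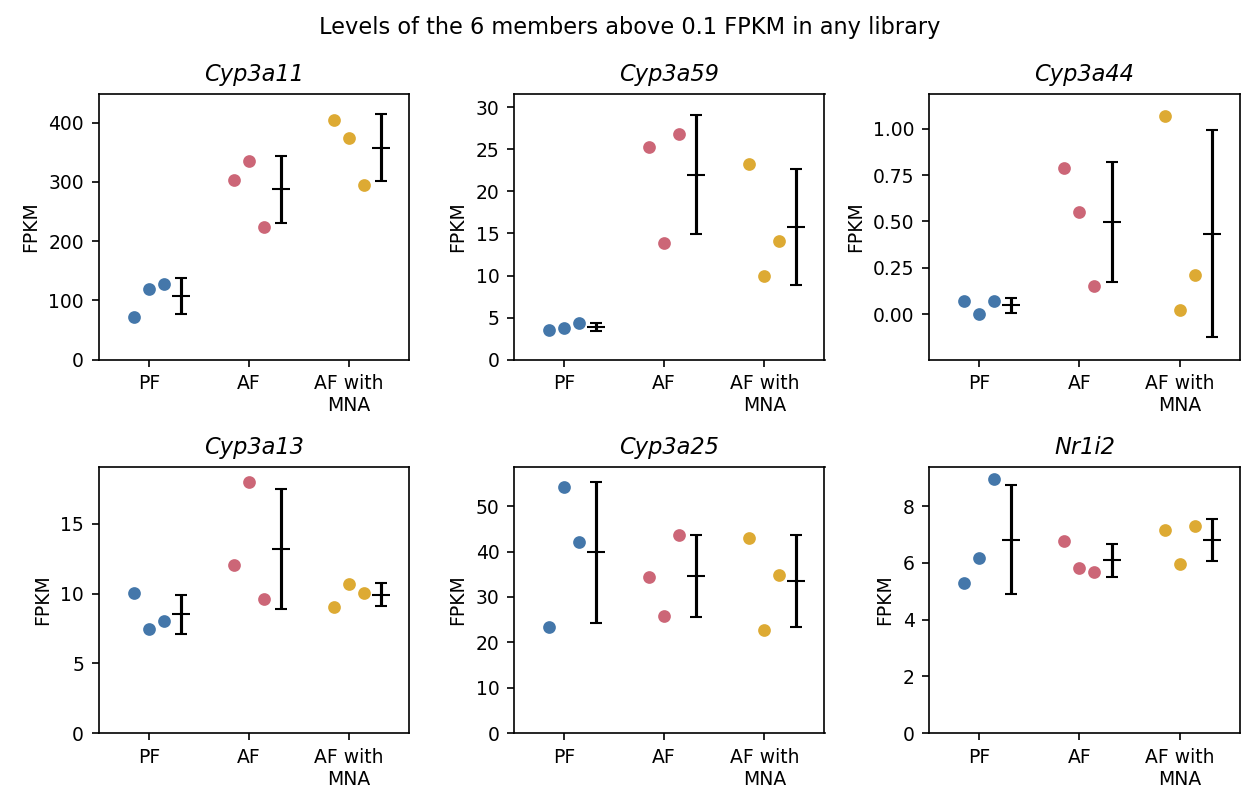
FPKM (y axes, linear, a scale per gene) of 6 members in each library of PF, AF and AF with MNA. Points are libraries in replicate order and bars give the mean ± SD (n = 3); Cyp3a11 and Cyp3a59 lay higher in every AF library than in any PF library, while Cyp3a25, Cyp3a13 and Nr1i2 overlapped.

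The comparison of AF with PF asks how chronic alcohol feeding changed these transcripts in liver. Cyp3a11 and Cyp3a59 were higher in all 3 AF libraries than in any PF library, as were 8.18% of all tested entries, and their group means were 2.69 and 5.66 times as high in AF. The receptor gene Nr1i2, Cyp3a25 and Cyp3a13 overlapped between the groups. Differences were tested with limma on log2(FPKM + 1) over the 12268 entries with a mean of at least 0.5 FPKM in the compared libraries, and 5 of 9 members passed that minimum. The threshold of the methods, which asks for a log2 ratio of group means beyond 1 or -1 together with an unadjusted p under 0.05, was passed by 2 members, both higher in AF, where 4.3% of all tested entries passed it and 1.95% passed it as higher in AF. The paper states this threshold for lncRNAs tested with Ballgown, whereas here it was applied to genes with the p from limma. A Benjamini-Hochberg adjusted p under 0.05 was reached by 1 member, Cyp3a59, against 0.326% of tested entries. RNA from bulk liver was measured, so fewer cells of a type and less RNA per cell cannot be told apart.

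Cyp3a11, the major drug-metabolising Cyp3a enzyme of mouse liver, stood at 71.9, 120 and 128 FPKM in the PF libraries, at 303, 335 and 224 in AF and at 405, 374 and 295 in AF with MNA. The lowest AF library lay well above the highest PF library, and AF with MNA overlapped AF. The log2 ratio of AF to PF was 1.43, and the limma coefficient on log2(FPKM + 1) was 1.45 (SE 0.27, 95% interval 0.79 to 2.10). Its p of 0.00143 passed the threshold of the methods, and its adjusted p from limma was 0.121. Each library left out in turn gave coefficients from 1.19 to 1.61.

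Cyp3a59, a P450 gene at the end of the cluster, stood at 3.50, 3.80 and 4.35 FPKM in PF, at 25.3, 13.8 and 26.8 in AF and at 23.3, 9.89 and 14.1 in AF with MNA. PF libraries were close together, and AF replicate 2 was the low AF library. The log2 ratio of AF to PF was 2.50 and the coefficient 2.18 (SE 0.26, 95% interval 1.57 to 2.80), with an adjusted p of 0.0328 (limma). That call depended on the libraries and settings: the adjusted p ranged from 0.00623 to 0.123, was 0.0794 without AF replicate 3, and stayed under 0.05 in 6 of 13 alternatives, while the coefficient ranged from 2.02 to 2.47.

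Cyp3a25, the closest relative of Cyp3a59, stood at 23.3, 54.1 and 42.0 FPKM in PF, at 34.4, 25.8 and 43.7 in AF and at 42.9, 22.7 and 34.9 in AF with MNA. All 3 groups overlapped and the PF libraries were the most spread. The coefficient of AF against PF was -0.15 (95% interval -0.96 to 0.66) with an adjusted p of 0.902 (limma), and this interval stayed within 1 on the log2 scale in both directions. The direction itself turned without PF replicate 2 or without AF replicate 2, with coefficients of 0.11 and 0.04.

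The ratio of Cyp3a59 to Cyp3a25, both in FPKM, was at 0.150, 0.0702 and 0.104 in PF, at 0.735, 0.537 and 0.613 in AF and at 0.543, 0.436 and 0.404 in AF with MNA. No AF or MNA library reached down to a PF library, and the mean ratio was 5.82 times as high in AF as in PF (exact permutation test over libraries, two-sided, p = 0.1, the smallest that 3 against 3 libraries can give). The ratio of Cyp3a11 to Cyp3a25 was at 3.09, 2.21 and 3.06 in PF, at 8.81, 13.0 and 5.13 in AF and at 9.44, 16.5 and 8.44 in AF with MNA, again without overlap between PF and either alcohol group (p = 0.1, exact permutation). Cyp3a59 relative to Cyp3a11 overlapped between PF and AF (0.0381 ± 0.00923 and 0.0814 ± 0.0391, p = 0.2, exact permutation). The sums, shares and ratios made 27 such tests, and with Benjamini-Hochberg adjustment over them the raw 0.1 became 0.2077. The pair share reads where they are identical: 6.0% of the 100-base windows of the Cyp3a25 transcript and 5.6% of those of Cyp3a59 occur in another Cyp3a transcript, and counting could mix the levels of the pair over those windows.

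Cyp3a13, the member outside the cluster and one known from intestine as well as liver, stood at 10.1, 7.44 and 8.04 FPKM in PF, at 12.1, 18.0 and 9.64 in AF and at 9.07, 10.7 and 10.1 in AF with MNA. AF replicates 1 and 2 lay above all PF libraries and AF replicate 3 did not. The coefficient of AF against PF was 0.55 (95% interval -0.02 to 1.11, adjusted p = 0.442, limma). It was 0.32 without AF replicate 2 and 0.74 without AF replicate 3. Of 6 enterocyte markers 4 were in the table, and their sum was 74.1 to 87.3 FPKM in PF and 95.0 to 201 in AF. Vil1 was at 0.0433 FPKM in PF and 0.0300 in AF, Lct at 0.00333 and 0.0133, Fabp2 was lower in AF (19.0 and 6.93) and Apoa4 higher (60.7 and 130), the last pair past the threshold of the methods; their part in the level of Cyp3a13 was not tested.

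Nr1i2, the gene of PXR, stood at 5.30, 6.17 and 8.97 FPKM in PF, at 6.77, 5.81 and 5.68 in AF and at 7.15, 5.97 and 7.30 in AF with MNA. All AF libraries lay within the range of PF. The coefficient of AF against PF was -0.12 (95% interval -0.58 to 0.35) with an adjusted p of 0.855 (limma), and without PF replicate 3 it was 0.07. On the fold scale the interval ran from 0.670 to 1.27.

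The remaining members were close to 0, and none passed the minimum level. Cyp3a44 stood at 0.07, 0 and 0.07 FPKM in PF, at 0.79, 0.55 and 0.15 in AF and at 1.07, 0.02 and 0.21 in AF with MNA. Its AF libraries lay above its PF libraries, and AF with MNA overlapped both. When entries at any level above 0 were tested, the log2 ratio of AF to PF was 3.41 and the coefficient 0.49 (SE 0.16, adjusted p = 0.488, limma). There Cyp3a44 passed the threshold of the methods, as did 1183 of 25240 entries. Cyp3a41a and Cyp3a41b were listed with the same values in every library, at most 0.03 FPKM, and 90.8% and 88.2% of their 100-base windows occur in another Cyp3a transcript, so that the level of each is uncertain. Cyp3a16 was listed at 0 in all 9 libraries, and Cyp3a57, the cluster gene that is no member, at 0 in 8 of 9 libraries and at 0.01 in the other.

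Summed over the 8 Cyp3a members, FPKM was at 109, 185 and 183 in PF, at 376, 393 and 305 in AF and at 481, 418 and 354 in AF with MNA, and the mean sum was 2.25 times as high in AF as in PF (p = 0.1, exact permutation). Cyp3a11 made up 67.0% ± 2.87 of the sum in PF, 79.8% ± 5.84 in AF and 85.7% ± 3.47 in AF with MNA (SD, n = 3). Cyp3a25 made up 24.5% ± 4.14, 10.0% ± 3.97 and 8.07% ± 2.33. The shares of both genes did not overlap between PF and either alcohol group.

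**Figure D3:**
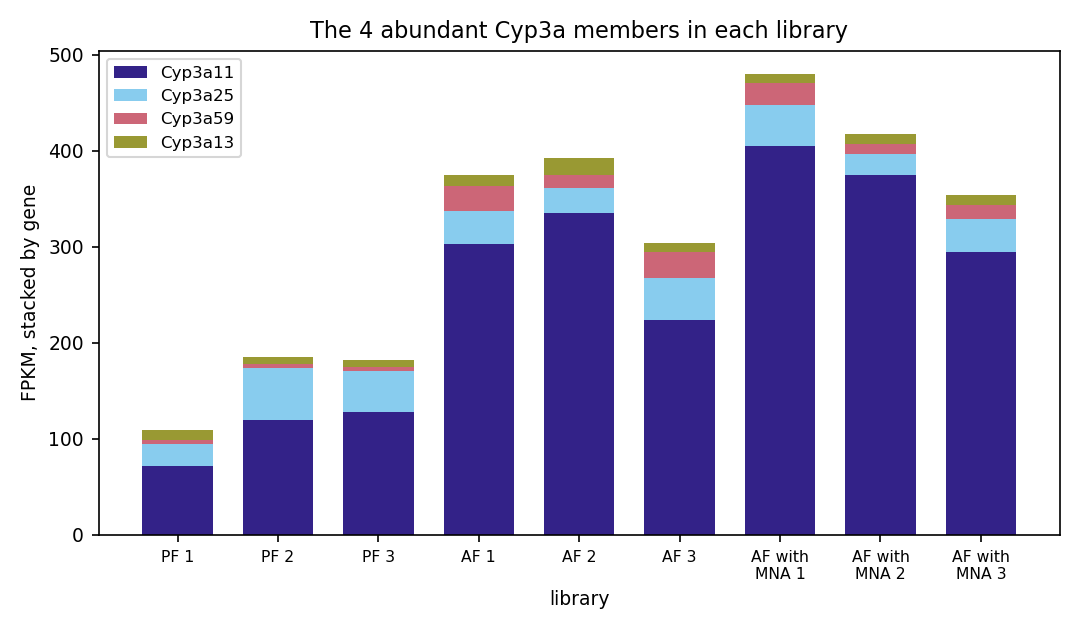
FPKM (y axis, linear, stacked) of Cyp3a11, Cyp3a25, Cyp3a59 and Cyp3a13 in each of the 9 libraries (x axis). The Cyp3a11 part grew from at most 128 FPKM in PF to at least 224 in AF, while the Cyp3a25 part lay between 22.7 and 54.1 in all libraries.

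The comparison of AF with MNA against AF asks whether the injected animals differed from animals on the same diet. None of the 5 tested members passed the threshold of the methods, which 1.98% of 12214 tested entries did, and none had an adjusted p under 0.05, as 0.0491% of entries did (limma); at an unadjusted p under 0.05 the count of members was also 0, against 5.22% of entries. The coefficient was 0.32 for Cyp3a11 (95% interval -0.20 to 0.84), -0.48 for Cyp3a59 (-1.35 to 0.39), -0.34 for Cyp3a13 (-0.88 to 0.20), -0.06 for Cyp3a25 (-0.75 to 0.63) and 0.14 for Nr1i2 (-0.18 to 0.45). The intervals of Cyp3a11, Cyp3a13, Cyp3a25 and Nr1i2 stayed within 1 on the log2 scale in both directions, and that of Cyp3a59 did not. With libraries left out in turn, the coefficient of Cyp3a11 was 0.15 when AF replicate 3 and 0.46 when replicate 3 of AF with MNA was left out. The coefficient of Cyp3a59 ran from -0.79 without replicate 1 of AF with MNA to -0.21 without its replicate 2, and that of Cyp3a13 was -0.53 when AF replicate 3 and -0.11 when AF replicate 2 was left out.

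Against PF, 2 members passed the threshold of the methods in AF with MNA, as did 3.89% of 12276 tested entries, and this comparison shares its PF libraries with the first. Cyp3a11 had a log2 ratio of 1.75 and a coefficient of 1.77 (95% interval 1.14 to 2.40, adjusted p = 0.0769, limma), and Cyp3a59 a log2 ratio of 2.02 and a coefficient of 1.70 (1.00 to 2.40, adjusted p = 0.102). No member had an adjusted p under 0.05, as 0.432% of entries did, while 2 had an unadjusted p under 0.05, as 14.5% of entries did; with all 9 libraries in the fit the adjusted count was 1, Cyp3a11 at 0.0337. Cyp3a25 had a coefficient of -0.21 (-1.09 to 0.67), Cyp3a13 of 0.21 (-0.12 to 0.53; 0.13 without PF replicate 2 and 0.32 without PF replicate 1) and Nr1i2 of 0.02 (-0.44 to 0.48).

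**Figure D4:**
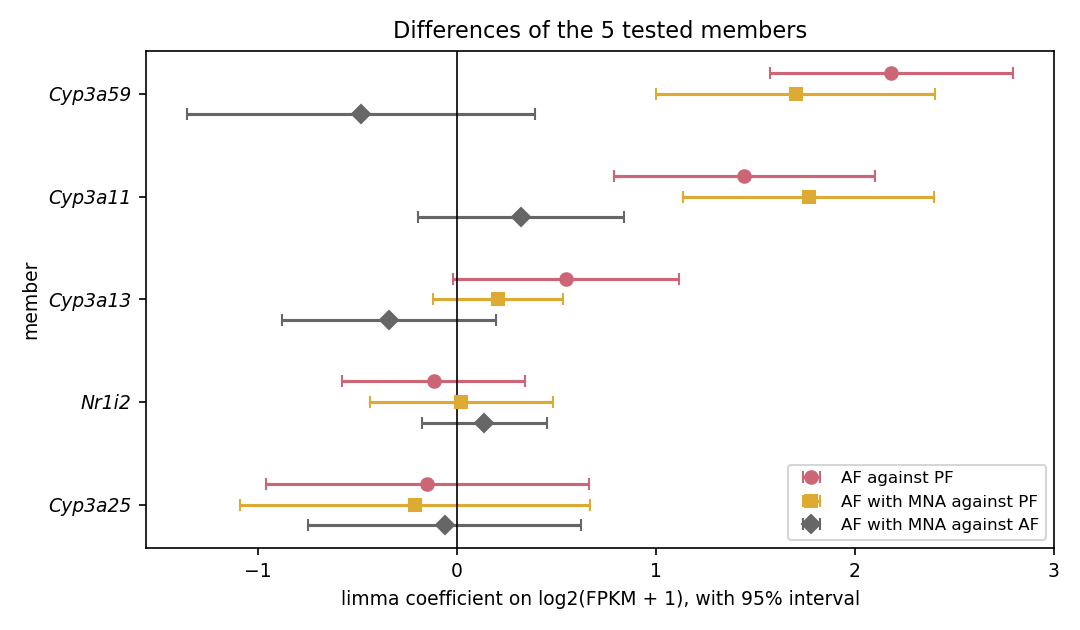
limma coefficients on log2(FPKM + 1) (x axis) with 95% intervals for the 5 tested members (y axis) in the 3 comparisons. The intervals of Cyp3a59 and Cyp3a11 against PF lie above 0 in both alcohol groups, and all others include 0.

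AF replicate 3 and replicate 1 of AF with MNA stood apart from the other libraries in their signal over transcripts inside introns, with a summed FPKM of 9433 and 8934 against 2477 to 4937 elsewhere. Without AF replicate 3 the coefficients of AF against PF were 1.61 for Cyp3a11 and 2.02 for Cyp3a59, and 2 members passed the threshold of the methods, as did 764 of 12188 tested entries. Without replicate 1 of AF with MNA the coefficients against PF were 1.67 and 1.40, with 2 members and 545 of 12231 tested entries past it. With both left out, AF with MNA against AF gave 0.06 for Cyp3a11 and -0.62 for Cyp3a59, and 0 members passed. Hepatocyte markers summed to between 16890 and 23850 FPKM in all libraries and overlapped between groups, a sum made up mostly of Alb; all 8 were present, and Tat, a tyrosine aminotransferase, passed the threshold of the methods as higher in AF (164 FPKM in PF and 388 in AF). Kupffer cell markers summed to 56.5 to 68.8 FPKM in PF and 44.8 to 82.4 in AF and overlapped. Of these 5, Marco passed the threshold of the methods as higher in AF (0.803 and 1.91 FPKM), whereas Clec4f (13.2 and 8.49), Vsig4 (8.86 and 6.16), Adgre1 (4.34 and 3.70) and Cd5l (36.0 and 37.3) did not pass. Cholangiocyte markers summed to 3.27 to 4.31 FPKM in PF and 4.86 to 9.12 in AF, neutrophil markers to 0.23 to 0.68 and 0.73 to 1.44, and lymphocyte markers to 0.91 to 1.68 and 0.33 to 0.90; none of these sums overlapped between PF and AF. Of these markers 2 reached the minimum level to be tested, both of cholangiocytes, and 0 passed. Endothelial markers summed to 19.7 to 24.3 FPKM in PF, 24.9 to 36.2 in AF and 30.4 to 33.8 in AF with MNA, without overlap between PF and the alcohol groups and with 0 of 5 past the threshold of the methods. The part of these markers in the member results was not tested. Total reads ran from 57800660 to 82179248 per library, and the highest total was that of replicate 1 of AF with MNA.

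The partners of PXR were described from a list of 14 receptors, coactivators and corepressors, of which 13 were tested. In AF against PF, 0 of 13 passed the threshold of the methods in either direction, where 4.3% of all tested entries passed, and the list's median log2 ratio was -0.13, beside -0.03 over all tested entries. Rxra, which encodes the partner receptor of PXR, had means of 26.8 FPKM in PF and 23.5 in AF (adjusted p = 0.712, limma). Ppargc1a, a coactivator, had 2.43 and 4.64 FPKM (adjusted p = 0.414), and Cebpa, a hepatocyte transcription factor, 89.8 and 64.6 (adjusted p = 0.497). Nr1i3, the gene of CAR, stood at 11.3, 16.0 and 12.1 FPKM in PF, at 14.2, 12.7 and 54.1 in AF and at 25.8, 47.2 and 18.3 in AF with MNA. Its mean in AF rested on replicate 3 (adjusted p = 0.666), whereas every library of AF with MNA lay above PF and passed the threshold of the methods (log2 ratio 1.21, adjusted p = 0.273, limma), the only one of the 13 to do so with all libraries; without replicate 1 of AF with MNA, 2 passed, Nr1i3 and Foxa2. Without AF replicate 3, 1 of 13 passed in AF against PF, Ppargc1a, as higher. In AF with MNA against AF the only partner past it was Foxa2, a liver pioneer factor with means of 5.22 and 1.06 FPKM (adjusted p = 0.940), named after its values were seen.

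Other genes known to respond to PXR or CAR were read from a list of 23, of which 18 were tested in AF against PF. Of these, 7 passed the threshold of the methods, all higher in AF (1.95% of all tested entries did), 5 with an adjusted p under 0.05 (0.326% of entries), and the median log2 ratio of the list was 0.91, beside -0.03 over all entries; without AF replicate 3 the counts were 8 and 4. Cyp2b10, the P450 gene used as the standard readout of CAR, stood at 0.28, 0.22 and 3.33 FPKM in PF, at 260, 195 and 133 in AF and at 183, 122 and 103 in AF with MNA. The difference of Cyp2b10 between AF and PF was larger than that of any Cyp3a member, with a log2 ratio of 7.26 (adjusted p = 0.00730, limma). Gsta2, a glutathione transferase, rose from 1.70 to 26.4 FPKM (adjusted p = 0.00515), Cyp2c29, a P450 gene of the neighbouring subfamily 2C, from 49.6 to 463 (adjusted p = 0.00730), Cyp2c55 from 0.260 to 2.02 (adjusted p = 0.0119) and Abcc3, an exporter of conjugates into blood, from 29.3 to 90.7 (adjusted p = 0.0143). Ces2a, a carboxylesterase, went from 39.4 to 96.7 FPKM (adjusted p = 0.0819), and Gstm2 from 21.2 to 46.3 (adjusted p = 0.106). In AF with MNA against AF, 0 of 19 passed, and against PF 7 of 18, all higher, where 3.89% of entries passed in either direction.

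**Figure D5:**
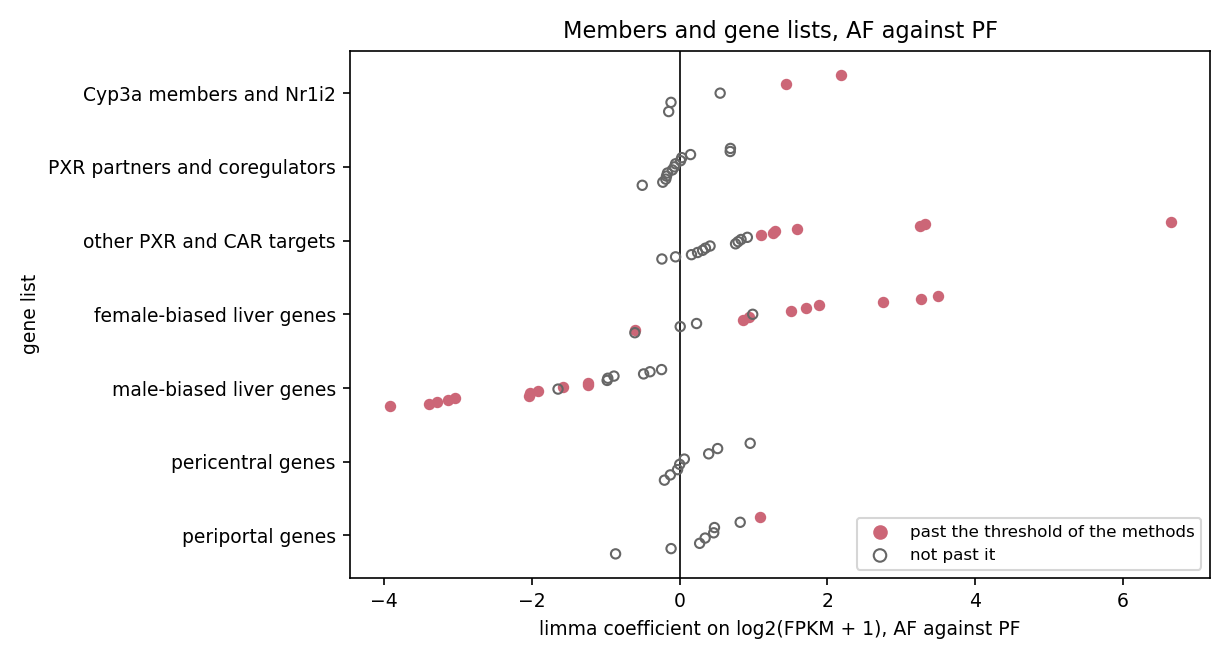
limma coefficients on log2(FPKM + 1) of AF against PF (x axis) for the tested members and the tested genes of 6 lists (y axis); each point is a gene, filled where it passed the threshold of the methods. Cyp2b10 is the point farthest to the right, 7 of 18 PXR and CAR targets are filled to the right, and 11 of 18 male-biased genes are filled to the left.

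Because Cyp3a41 and Cyp3a44 are known from female liver, genes with sex-biased levels in mouse liver were read beside them. Of 13 tested female-biased genes, 8 passed the threshold of the methods as higher in AF (1.95% of all tested entries did) and 1 as lower (2.35%, Cyp2c69, named after its values were seen), 2 of them with an adjusted p under 0.05 (limma, 0.326% of entries), and the list's median log2 ratio was 1.94; without AF replicate 3 the counts were 6 and 1 of 12. Cyp2b13 stood at 0, 0.01 and 0 FPKM in PF, at 4.77, 5.48 and 7.36 in AF and at 25.5, 6.01 and 11.6 in AF with MNA (AF against PF, adjusted p = 0.00263). Cyp2a4 rose from 1.41 to 27.7 FPKM (adjusted p = 0.00817), Cyp4a14 from 45.8 to 176 (adjusted p = 0.155), Slc16a5 from 1.80 to 7.96 (adjusted p = 0.124) and Cyp17a1 from 5.05 to 16.3 (adjusted p = 0.359). Cyp2b9 stood at 0.02, 0.01 and 0.15 FPKM in PF, at 6.66, 3.33 and 30.7 in AF and at 29.5, 8.85 and 11.5 in AF with MNA (AF against PF, adjusted p = 0.147), and its AF mean rested mostly on replicate 3. Cyp2b13 and Cyp2b9 were under the minimum of 0.5 FPKM in PF and reached this test only through AF. Of the Cyp3a genes of that kind, Cyp3a41a and Cyp3a41b were at most at 0.03 FPKM. Cyp3a44 had means of 0.0467 FPKM in PF and 0.497 in AF and did not pass the minimum level. Its highest library, at 1.07 FPKM, was in AF with MNA.

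Of 18 tested male-biased genes, 11 passed the threshold of the methods as lower in AF (2.35% of all tested entries did) and 0 as higher, 4 with an adjusted p under 0.05 (limma, 0.326% of entries), with a median log2 ratio of -1.70; without AF replicate 3, 9 passed. Elovl3, a fatty acid elongase, fell from 40.7 to 2.93 FPKM (adjusted p = 0.00730), Hsd3b5, a steroid dehydrogenase, from 17.3 to 0.120 (adjusted p = 0.00766), Cyp4a12b from 24.3 to 2.05 and Cyp2u1 from 11.4 to 2.10 (both adjusted p = 0.0283). Cyp4a12a, Serpina1e, Slco1a1, Nudt7, Mup7 and Mup1 passed only the threshold of the methods, with log2 ratios from -1.20 for Nudt7 to -3.16 for Serpina1e. The paper already names transcripts of Elovl3, Cyp4a12a, Cyp4a12b, Cyp2u1, Slco1a1 and Mup1 as lower in its alcohol model by sequencing. The male-biased list was chosen with earlier results of these data known. Its count beside the share of all tested entries is therefore no independent evidence of a shift in male-biased genes. Elovl3 stood at 2.33, 3.99 and 2.46 FPKM in AF and at 2.93, 14.8 and 16.8 in AF with MNA, where replicate 1 lay within the range of AF and the higher mean rested on the other two libraries. It was the only one of 16 tested genes of this list past the threshold of the methods in AF with MNA against AF (adjusted p = 0.940). In AF with MNA against PF, 8 of 18 passed as lower, 1 with an adjusted p under 0.05 (limma). Of female-biased genes, 6 of 13 passed against PF as higher, 4 with an adjusted p under 0.05, and 1 of 14 against AF. Over all tested entries, 3.89% passed against PF in either direction, 0.432% by adjusted p, and 1.98% passed against AF.

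Position along the liver lobule was read from zonal genes, since Cyp3a enzymes are known mainly from hepatocytes near the central vein. Of 8 tested pericentral genes 0 passed in AF against PF, where 4.3% of all tested entries passed, with a median log2 ratio of 0.06, and Cyp1a2, a P450 gene of that zone, went from 317 to 619 FPKM (adjusted p = 0.127, limma). Slc1a2, Oat and Cyp2e1, the ethanol-oxidising P450, had log2 ratios of 0.56, 0.36 and -0.21. Of 8 periportal genes 1 passed as higher, as 1.95% of entries did, namely Sds, a serine dehydratase, from 15.6 to 33.3 FPKM (adjusted p = 0.307), and the median was 0.39; Hal, Gls2 and Ctsc had log2 ratios of 0.87, 0.50 and 0.46. In the other 2 comparisons 0 of 8 passed in either list.

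The patterns most like Cyp3a11 were sought over the 9 libraries among 9979 entries with a mean of at least 1 FPKM, by Pearson r of log2(FPKM + 1), as a description over libraries that fall into diet groups. The closest were Dus3l (r = 0.991), Ces2a (0.961), Slc16a5 (0.958), Cyp2c54 (0.953) and Gstm4 (0.952). Means of Gstm4, a glutathione transferase, were 45.6, 340.0 and 311 FPKM in PF, AF and AF with MNA, and those of Cyp2c54 were 68.3, 243 and 252. Dus3l, a tRNA-modifying enzyme, followed the order of libraries over a narrow range, with means of 4.13, 5.27 and 5.70 FPKM. With Cyp3a11, r was 0.807 for Cyp3a59, 0.461 for Cyp3a13, 0.114 for Nr1i2 and -0.101 for Cyp3a25. For Nr1i2 the closest entries were Slc30a10 (0.929), Rnf146 (0.906), Ndufa1 (0.902), Gm26723 (0.898) and Mxd4 (0.897).

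Circular RNAs with both ends in a member gene were matched by coordinates. There were 10, in Cyp3a25 (6), Cyp3a11, Cyp3a13, Cyp3a59 and Nr1i2 (1 each), with 22 back-splice junction reads in all 9 libraries together, 9 in PF, 6 in AF and 7 in AF with MNA. Both ends of each fell on annotated exon boundaries. Cyp3a25 held 15 of these reads, 6 in PF, 4 in AF and 5 in AF with MNA, while Cyp3a11, with the higher FPKM in every library, held 2, both in AF replicate 2. At these counts no difference between groups was detectable.

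No lncRNA transcript of the deposited lncRNA table overlapped a member gene. Within the cluster, the known single-exon transcript Gm42863 lay at chr5:145504097-145507054 on the minus strand, between Cyp3a16 and Cyp3a41b. It stood at 6.24, 4.99 and 5.77 FPKM in PF, at 4.71, 3.12 and 7.63 in AF and at 4.82, 5.71 and 4.31 in AF with MNA. The groups overlapped, and Gm42863 was above both of its neighbours, which were at or near 0, in every library. An unnamed single-exon transcript lay between Cyp3a25 and Cyp3a59, at chr5:146029312-146029555 on the plus strand. It stood at 1.74 FPKM in replicate 1 of AF with MNA and at 0 in every other library.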

How the data were processed

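Liver RNA depleted of ribosomal RNA was sequenced strand-specifically, with 1 library per replicate and 3 per group. The authors made the deposited FPKM values of genes and lncRNA transcripts with StringTie (1.3.4 in the submitters' processing notes, which also name HISAT2, TopHat, cutadapt 1.9 and edgeR); gene values are rounded to 2 decimals. The deposited coverage signal of lncRNAs is not scaled for depth, and 1 FPKM stood for a mean coverage of 5.84 to 8.30. The deposited circRNA values are raw junction counts by the authors; a second deposited signal is that count divided by a library constant, from which total reads were recovered. Genes have no deposited counts, so precision was judged from replicates. The build is not given in the sources used here; 7708 of 7841 lncRNAs matched by identifier had the same ends in GENCODE M21 (GRCm38).

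Groups came from the labels. Entries with a known transcript, a gene name and a mean of at least 0.5 FPKM were tested as log2(FPKM + 1) with limma 3.58.1 in R 4.3.3 (eBayes with an intensity trend, two-sided), with Benjamini-Hochberg adjustment over all tested entries; the test was checked on simulated data. A fold change on this scale understates low genes. The members and lists were chosen with earlier results of these data known. Named from each list were the 4 genes of lowest p in AF against PF and those past the threshold of the methods with a mean of at least 5 FPKM; 1 gene so chosen is not reported here. Alternatives were a pseudocount of 0.1, other minimum levels, equal library medians, no trend, all 9 libraries, the replicate block and each library left out; leaving out both intron-rich libraries, and list counts without either, were added after the data were seen. The strand setting of the counting is not given in the sources used here, and paralogous Cyp3a genes may share reads. Same-numbered libraries did not deviate together. Sequences were taken from RefSeq (GRCm38.p6) and all 9 members matched.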

Additional observations from a re-analysis of the deposited data

How the results depend on the processing

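Of 200 member coefficients under alternatives, 189 kept their direction and their side of the threshold of the methods, while calls by adjusted p moved. The 11 that turned were of Nr1i2 and Cyp3a25, neither of which passed a test, each with 1 library left out. In AF against PF, Nr1i2 ranged from -0.258 to 0.073 with libraries left out (the latter without PF replicate 3), and Cyp3a25 from -0.482 to 0.109 (without PF replicate 2), with 0.043 without AF replicate 2. In AF with MNA against AF, Cyp3a25 ranged from -0.257 to 0.188 (without AF with MNA replicate 2), with 0.119 without AF replicate 3. In AF with MNA against PF, Nr1i2 ranged from -0.119 to 0.212, negative without PF replicate 1 (-0.119) or 2 (-0.026) and without AF with MNA replicate 1 (-0.011) or 3 (-0.024), and Cyp3a25 from -0.543 to 0.048 (without PF replicate 2), with 0.040 without AF with MNA replicate 2.

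The count of members past the threshold of the methods in AF against PF was 2 in all alternatives but one, and 3 (with Cyp3a44) when any level above 0 was tested, where 1183 of 25240 entries passed. The count with an adjusted p under 0.05 went from 1 to 0 with any level above 0, and ranged from 0 to 1 with each library left out, staying at 1 only without AF replicate 2. Under the replicate block, with which the labels' numbers have no stated pairing (correlations of same-numbered libraries from -0.08 to 0.06), it was also 0, with Cyp3a59 at an adjusted p of 0.108; the block changed no other call of a member. In AF with MNA against PF that count went from 0 to 1 with all 9 libraries in the fit. The cause of these moves was not tested. With no library left out, members under 0.5 FPKM were tested only at that lower minimum, where 3 libraries a group give little precision.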
